A study of Mus musculus with 20 samples.

Results

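The coding peaks described here are the stretches of messenger RNA, called in m6A immunoprecipitation of mouse hearts, that lie within protein-coding sequence only. They were chosen by the region annotation in the authors' peak lists: every row annotated as coding and nothing else was kept, and rows repeated at the same position and strand within a list were dropped. This left 60862 coding peaks of 141836 peaks in 10 lists, or 42.9% of all peaks, in 3893 genes. The remaining peaks lay in the 3′ untranslated region only (51670), spanned coding and 3′ untranslated sequence across the stop codon (24093) or touched the 5′ untranslated region (5211). Each list came from 1 heart. Hearts of 5 mice homozygous for the db allele (db/db) and 5 heterozygous mice (db/+) were used, and 2 libraries were made from each of the 10, of input RNA and of RNA immunoprecipitated for m6A, 20 in all. The labels give the strain of all mice as C57BL/6 and no age or other treatment. A separate label calls the heterozygous animals wild type, and the titles, which name the genotype, were followed. The db allele is a defect of the leptin receptor gene, and homozygous animals become obese and diabetic. The study set out to compare the m6A profile of the diabetic and the healthy heart.

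N6-methyladenosine (m6A) is a methyl group on internal adenosines of messenger RNA. It is written in the nucleus by a complex around Mettl3 and Mettl14, can be removed by Fto and Alkbh5, and is read by the Ythdf and Ythdc proteins, which affect splicing, export, translation and decay. The mark is best known near stop codons and in 3′ untranslated regions, and within coding sequence it is known for its preference for unusually long internal exons. A peak in such a list is a stretch of many bases in which immunoprecipitated RNA exceeded input, so a peak can hold several methylated adenosines, and its position does not give the modified base. The lists give each peak along the transcript, so a peak that runs over an exon junction is recorded as several exon blocks.

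The sequence under coding peaks could be read where a RefSeq promoter window of another gene (GRCm38.p6) overlapped a coding peak region. The search started from the 1396 coding regions present in 5 or more hearts, and not every chromosome was searched. It gave 4 such stretches of at least 150 bases, where the longest was kept for each window. They are shown because they are coding peak sequences that can be read from the reference tables used here. Within the chromosomes searched, they were chosen for that and for their length. They are printed on the strand of the gene that carries the peak, with GGAC, a common form of the sequence that the writer complex prefers, in capitals.
Nop14 (chr5:34650444-34650620, minus strand, 177 bases): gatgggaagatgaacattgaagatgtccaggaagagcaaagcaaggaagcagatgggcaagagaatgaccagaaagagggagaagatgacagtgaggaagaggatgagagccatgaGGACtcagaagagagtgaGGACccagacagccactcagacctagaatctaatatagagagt
Cic (chr7:25270885-25271087, plus strand, 203 bases): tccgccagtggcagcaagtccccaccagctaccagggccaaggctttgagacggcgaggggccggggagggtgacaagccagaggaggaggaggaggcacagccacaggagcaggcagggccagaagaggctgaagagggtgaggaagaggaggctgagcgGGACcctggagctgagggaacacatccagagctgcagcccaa
Pde4dip (chr3:97747765-97747935, minus strand, 171 bases): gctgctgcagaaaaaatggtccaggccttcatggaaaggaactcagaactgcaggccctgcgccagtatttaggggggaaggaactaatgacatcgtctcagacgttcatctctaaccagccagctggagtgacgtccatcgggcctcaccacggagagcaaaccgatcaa
Xirp2 (chr2:67516666-67516909, plus strand, 244 bases): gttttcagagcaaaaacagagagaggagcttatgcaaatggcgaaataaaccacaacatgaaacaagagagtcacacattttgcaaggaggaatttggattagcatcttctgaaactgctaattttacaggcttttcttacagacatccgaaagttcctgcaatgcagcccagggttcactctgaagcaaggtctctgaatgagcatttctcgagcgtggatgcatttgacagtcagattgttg

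The Nop14 stretch, from a gene for a nucleolar protein of small ribosomal subunit assembly, holds GGAC 2 times on the strand shown and lay under a peak in all 10 hearts, 7 of which covered every base of it. The Cic stretch, from a gene for a transcriptional repressor, holds it 1 time and lay under a peak in 5 hearts, 1 of which covered it whole. The Pde4dip stretch (an anchor protein of the centrosome and Golgi) and the Xirp2 stretch (an actin-binding protein of the heart's intercalated disc) hold no GGAC on this strand, and they lay under peaks in 10 and 8 hearts. Of these hearts, 2 covered the Pde4dip stretch whole and 0 the Xirp2 stretch, where the most was 209 of 244 bases. Each printed stretch joins bases covered in any heart. A window of equal length taken from the 32851 RefSeq promoter windows held GGAC on the given strand in 45.2% to 57.1% of cases, and on either strand in 70.1% to 81.5%. The presence of the motif in 2 of 4 stretches is therefore near the share in promoter windows. In each of the 4 stretches 1 of the 3 reading frames on the gene's strand was free of stop codons.

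Coding peaks numbered 4996, 6254, 5913, 6253 and 7198 in the db/+ hearts 1 to 5, and 6329, 6399, 6366, 6902 and 4252 in the db/db hearts 1 to 5. Heart db/+ 5 had the most and heart db/db 5 the fewest. These hearts also had the longest and the shortest list of all peaks, 20021 and 8462, and results that rest on them are given below with and without them. The lists hold a peak for each transcript isoform, so that near-copies of a peak recur within a heart. Joining overlapping coding peaks of a heart left 1792 to 3214 sites per heart, 26651 in all, with 2.28 peaks per site. Coding peaks fell in 1265 to 2093 genes per heart. The lists give no read counts and the expression table gives fragment counts scaled by the authors to the length of the transcript and the size of the library (FPKM), so sequencing depth is unknown here. Heart muscle markers (Myh6, Tnnt2, Tnni3, Actc1, Ryr2 and Pln) had a summed level of 6820 to 8323 FPKM in db/+ input libraries, and of 6194 to 7215 FPKM in those of db/db hearts. The 4 adipocyte markers summed to 13.9 to 251 FPKM in db/+ hearts and to 5.98 to 55.9 FPKM in db/db ones, and their part in the results was not tested; none of the 4 had a coding peak in 5 or more hearts. The 2 lymphocyte markers are not in the expression table used here. Transcripts of the leptin receptor gene were not analysed here.

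**Figure D1:**
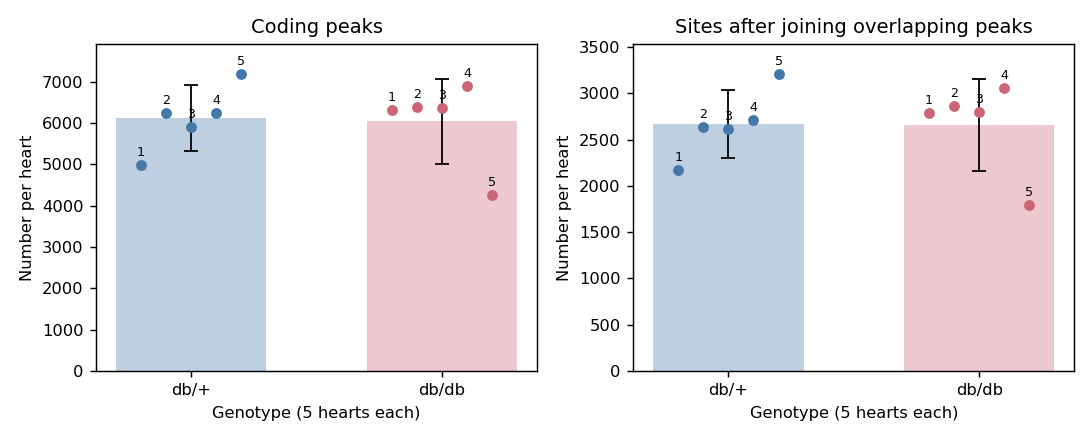
Number of coding peaks (left) and of sites after joining overlapping coding peaks (right) in each heart, with the replicate number beside each point; bars are genotype means and error bars are SD over 5 hearts. The genotypes overlap in both panels, with db/+ 5 highest (7198 peaks) and db/db 5 lowest (4252 peaks).

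Coding peaks were mixed in shape. Of the 60862, 46.5% lay within 1 exon block, 23.3% had 2 blocks, 13.6% had 3, 6.64% had 4 and 9.99% had 5 or more. The most blocks in a coding peak was 41, and 601 peaks had 10 or more. Summed over its blocks, a coding peak was 55 to 7851 bp long, with quartiles of 120, 208 and 360 bp. Lengths moved in steps of 30 bp: 91.2% of single-block coding peaks were within 1 bp of a multiple of it.

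Single blocks had a higher median length than the exons that spliced peaks ran through whole. Single blocks had a median of 151 bp and a 90th percentile of 451 bp, and 13% of them reached 400 bp, the length used here to call a block long. The inner blocks of spliced peaks, which are bounded by exon junctions on both sides, had a median of 105 bp and a 90th percentile of 179 bp, and 0.566% reached 400 bp. The first and last blocks of spliced peaks, which end inside an exon, had a median of 62 bp. Peaks of 1 block of at least 400 bp numbered 3663, or 6.02% of coding peaks, and 5332 coding peaks (8.76%) had a block of that length anywhere. Blocks of a peak share their transcript and heart, so these values are a description with no test. An inner block is a whole exon that its peak runs past, and a single block is a peak that fits inside its exon. The order of lengths thus depends in part on these definitions, and a preference for long exons was not tested.

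**Figure D2:**
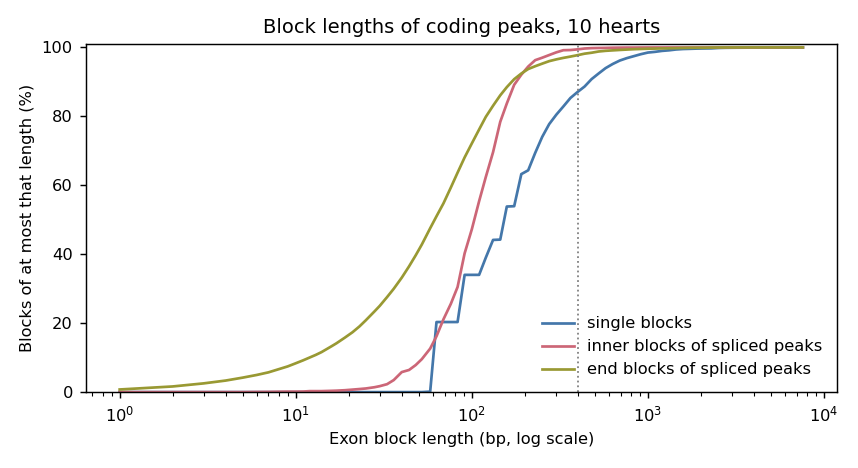
Cumulative share of exon blocks of coding peaks by length (log scale), for peaks of 1 block, for inner blocks of spliced peaks and for their first and last blocks, over 10 hearts; the dotted line marks 400 bp. The single-block curve rises in steps of 30 bp and lies to the right of the inner blocks from their median upward, with 13% of single blocks and 0.566% of inner blocks at 400 bp or more.

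Set against the other peaks of the same heart, coding peaks were more often spliced than 3′ untranslated and stop-spanning peaks and shorter than the stop-spanning ones. A single block was found in 46.3% ± 2.74 of coding peaks (SD, n = 10 hearts), in 99.6% ± 0.0695 of 3′ untranslated peaks, in 56.6% ± 3.03 of stop-spanning peaks and in 37.4% ± 5.27 of peaks touching the 5′ untranslated region. The mean block number was 2.34 in coding peaks, 1.00 in 3′ untranslated peaks, 2.07 in stop-spanning peaks and 2.78 in peaks touching the 5′ untranslated region. Median lengths were 198 bp ± 14.7 in coding peaks, against 162 bp ± 14.1, 319 bp ± 23.3 and 250 bp ± 21.6 in the same order of classes. All 9 differences had the same direction in 10 of 10 hearts (exact sign-flip permutation test within hearts, two-sided, p = 0.00195 and adjusted p = 0.00195, the smallest that 10 hearts allow). A peak that is long is more likely to reach into a neighbouring part of the transcript, so the class label depends in part on length. Block number also depends on the exon junctions present in each part of the transcript. These tests cannot tell that structure from the placing of the mark.

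**Figure D3:**
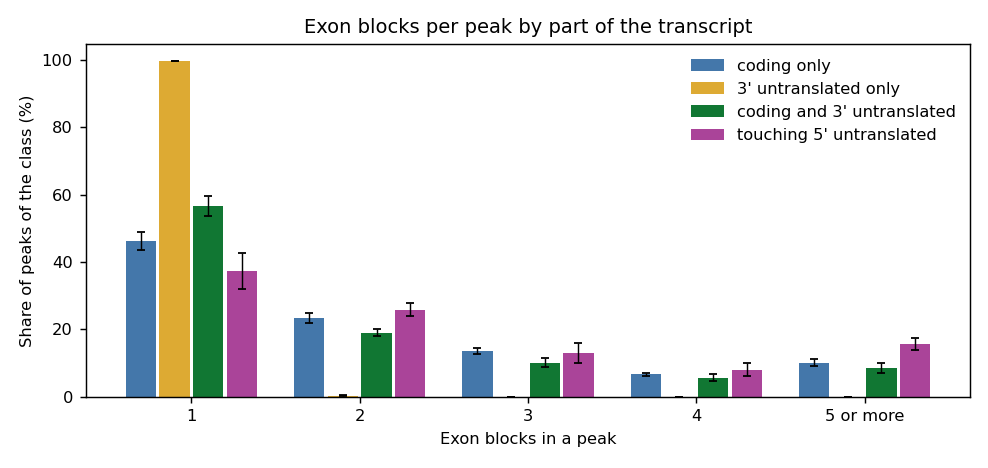
Share of peaks with 1, 2, 3, 4 and 5 or more exon blocks in the 4 classes of peaks; bars are means and error bars SD over 10 hearts. Coding peaks have 1 block in 46.3% of cases on average, 3′ untranslated peaks in 99.6%.

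Coding peaks also lay on longer transcripts, where a transcript counts once for each of its peaks. Lengths per gene were not compared. The median length of the transcript under a coding peak was 3992 bases ± 80.3 (SD, n = 10 hearts), against 3223 ± 94.1 under 3′ untranslated peaks and 2334 ± 113 under stop-spanning peaks, in 10 of 10 hearts each (exact sign-flip permutation test, adjusted p = 0.0026). The authors' fold enrichment, taken as a percentile within each list, had a median of 47.6 for coding and 55.1 for stop-spanning peaks (lower in coding peaks in 10 of 10 hearts, exact sign-flip test, adjusted p = 0.0026). Against 3′ untranslated peaks, with a median percentile of 49.2, the difference went each way in 5 hearts (exact p = 0.693).

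Some coding peaks filled several kilobases of a single block. By gene, the longest in genes that had a long single-block peak in all 10 hearts were in Xirp2 (7851 bp), Ankrd11 (3508 bp), Ahnak (2908 bp), Ttn (2551 bp) and Ehbp1l1 (2515 bp); Ankrd11 was named after its values were seen. To follow a peak from heart to heart, peaks of all parts of the transcript were merged over hearts where their blocks shared at least 1 bp on a strand, and a merged region was called coding when every peak in it was coding. Among coding regions present in all hearts and mostly of 1 block, the 10 with the longest median length lay in Ehbp1l1, Xirp2, Filip1, Dst, Thap12, Klhl9, Ahnak, Ttn, Cmya5 and Dsp. In Xirp2 (chr2:67508310-67516215, plus strand), the best peak of the region, that with the smallest authors' p-value in a heart, was 3896, 2397, 7641, 7846 and 3654 bp long in the db/+ hearts and 1588, 3684, 2488, 1768 and 1708 bp in the db/db hearts. The 3 longest of these were db/+ peaks, but the genotypes overlapped. The authors' fold for these peaks was 2.82 to 7.91. Xirp2 is the same gene whose neighbouring coding stretch is printed above. In Ehbp1l1 (chr19:5717185-5720253, minus strand), a gene of vesicle traffic, the best peak was 2335 to 2515 bp long in 9 hearts and 1556 bp in db/db 5. In Dst (chr1:34190407-34192227, plus strand), which encodes the cytoskeletal linker dystonin, it was 661 to 1739 bp long. In Dsp (chr13:38195820-38197049, plus strand), which encodes the desmosome protein desmoplakin, it was 450 to 1229 bp long. In Filip1 (an interactor of filamin), it was 809 to 1467 bp long, with the db/+ heart 5 lowest. Regions in Thap12, Klhl9 (a substrate adaptor of a ubiquitin ligase), Ahnak (a giant scaffold protein), Ttn and Cmya5 (a costamere protein of heart and skeletal muscle) had median best peaks of 811 to 1304 bp over hearts. Single-block peaks of at least 400 bp occurred in 345 genes, in 117 of them in 5 or more hearts and in 27 of them in all 10. Zinc finger genes of the Zfp family, many of which have a single long coding exon, made up 2.56% of the 117 genes and 2.66% of the genes in the expression table.

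At the other end of the range, some coding peaks ran through long chains of short exons. The 6 coding regions present in all 10 hearts with the most blocks per peak lay in Ktn1, Col6a2, Col6a1, Rock1, Rock2 and Cdk11b. The Ktn1 region (chr14:47663986-47736112, plus strand), in the gene for kinectin of the endoplasmic reticulum, had best peaks of 38, 39, 39, 40 and 6 blocks in db/+ hearts and 38, 39, 36, 38 and 9 blocks in db/db hearts. The low values were those of db/+ 5 and db/db 5, whose peaks covered 421 and 659 bp, against 3299 to 3665 bp in the other 8 hearts. In Col6a2 and Col6a1, which encode chains of collagen VI of the heart's matrix, best peaks had 6 to 20 and 5 to 26 blocks. In Rock1 and Rock2, the kinases that act under the GTPase RhoA, they had 5 to 17 and 8 to 23 blocks. In Cdk11b, a kinase tied to splicing and transcription, they had 8 to 11 blocks.

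Titin carried more coding peaks than any other gene. Ttn encodes the giant spring protein of the sarcomere and had 2317 coding peaks in 10 hearts, which formed 48 to 76 sites per heart and 77 coding regions. Of these regions, 43 were found in 5 or more hearts and 30 in all 10. Other genes with many regions in 5 or more hearts were the centrosome and Golgi scaffold Akap9, Dst and the Golgi tether Golgb1 with 6 each, Ahnak and Bod1l with 5 each, and Luzp1, Macf1 and Prune2 with 4 each. Ahnak had 10 to 20 sites and 95.0% single-block peaks. Macf1, a linker of microtubules and actin, had 4 to 10 sites and 29% single-block peaks. These genes have long transcripts, from 7526 bases for Luzp1 to 106824 for Ttn, and peaks of a gene share that transcript.

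By function, coding peaks were spread unevenly over the gene lists. Of the 11856 genes in the expression table, 14.8% had a coding peak in 5 or more hearts. Among 36 listed genes for cytoskeletal and scaffold giants, 26 did, among them Dst, Plec and Macf1 with 505, 495 and 365 peaks. Of 49 genes for chromatin and transcription factors, 29 did, led by Mga and Ncor1 with 133 peaks each and Atrx with 91. Of 35 sarcomere and Z-disc genes, 17 did, and 13 had coding peaks in all 10 hearts, among them Ttn and Tpm1. Of 20 genes of the m6A machinery in the table, 9 did: the writer subunits Wtap, Virma, Zc3h13, Rbm15b and Cbll1 and the readers Ythdf2, Ythdf3, Ythdc1 and Hnrnpa2b1. Zc3h13 led them with 97 peaks and 2 to 7 sites per heart. Calcium handling and ion channel genes had 4 of 26, which were Ryr2, Slc8a1, Trdn and Casq2, the release channel, the sodium-calcium exchanger and 2 partners of the release channel. Fatty acid oxidation genes had 5 of 22, Cpt2, Acadl, Acadvl, Hadha and Etfb. Nuclear genes of oxidative phosphorylation had 4 of 30 (Ndufs1, Ndufv1, Uqcrc2 and Atp5c1). Cytosolic ribosomal protein genes had 3 of 30 (Rpl5, Rpl11 and Rps19), and genes of insulin signalling and glucose uptake had 2 of 26 (Pik3r1 and Hk2). The lists differ in transcript length and expression, and neither was matched, so nothing particular to a list follows from its count.

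Expression differed between genes with and without coding peaks. Genes with a coding peak in 5 or more hearts that were in the expression table (1755 genes) had a median of 6.79 FPKM, genes with peaks in other parts only (4053 genes) 5.77 FPKM and genes with no peak (3955 genes) 1.90 FPKM. The order is a description with no test, and genes with a coding peak in 1 to 4 hearts are in none of these sets. The coding set needed a peak in 5 or more hearts and the set with peaks in other parts a peak in any heart. These unlike thresholds alone could set the 2 medians apart. On the mitochondrial chromosome 46 coding peaks were listed. Those of mt-Nd4, a subunit of complex I, were found in all 10 hearts, with folds from 2.07 to 73.7 and lengths up to 1378 bp, and those of mt-Cytb, a subunit of complex III, were found in all 10 hearts with folds from 1.54 to 3.78.

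Most coding regions were found in few hearts. Merging gave 15747 regions in all, of which 4955 were coding and 1508 mixed coding peaks with peaks of another class. The coding regions held 72.7% of coding peaks and the mixed regions 27.3%, and 1193 of the mixed regions held stop-spanning peaks. Of the 4955 coding regions, 2256 (45.5%) were found in 1 heart and 495 (9.99%) in all 10, against 39.2% and 14.4% of all regions. The 495 regions lay in 404 genes. A further 187 regions were found in 9 hearts, and db/db 5 was the missing heart in 90 of them. Genes were shared more than regions: of the 3893 genes with a coding peak, 970 had it in 1 heart, 1764 in 5 or more and 615 in all 10. When mixed regions were counted as coding too, 1141 regions were found in all 10 hearts, since 42.8% of mixed regions were. Taking only the 8462 peaks with the smallest authors' p-value from each list, so that lists were equally long, left 773 coding regions in 1 heart and 344 in all 10.

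**Figure D4:**
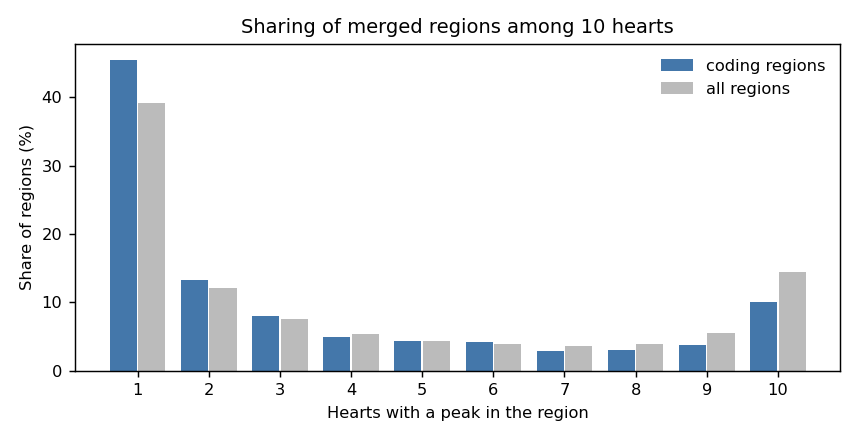
Share of merged regions by the number of hearts with a peak in them, for 4955 coding regions and for all 15747 regions. Both sets peak at 1 heart (45.5% of coding regions) and rise again at 10 hearts (9.99%).

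Widely shared regions were longer and more often spliced. The median length of peaks in a region, taken as a median over regions, was 90 bp for regions in 1 heart, 120 bp in 2 to 4 hearts, 179 bp in 5 to 9 hearts and 386 bp in all 10. The share of regions with 1 block fell from 68.5% through 60.9% and 50.4% to 35.4% in the same order. Regions of long single blocks numbered 1 in 1 heart, 0 in 2 to 4, 4 in 5 to 9 and 69 of 495 in all 10. A longer peak meets peaks of other hearts more easily when regions are merged by overlap, so this relation is given without a test.

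Between genotypes, coding peaks did not differ in number or shape beyond the spread between hearts when all 10 hearts were compared. Coding peaks numbered 6123 ± 791 in db/+ and 6050 ± 1032 in db/db hearts (SD, n = 5 each; exact permutation test, two-sided, p = 0.897). They made up 41.7% ± 4.24 of peaks in db/+ and 45.3% ± 3.15 in db/db hearts (exact p = 0.175). Without db/+ 2, whose share of 47.6% was the highest of its genotype, the difference was 5.12 percentage points (exact p = 0.0397). Leaving out that heart raises db/db against db/+ by construction, so this p is no evidence of a difference. With any other single heart left out, the difference was 2.21 to 4.53 points (exact p = 0.119 to 0.349). Genes with a coding peak numbered 1837 ± 191 and 1847 ± 331 (exact p = 0.960). The median length was 193 bp ± 15.9 and 203 bp ± 12.5 (exact p = 0.492). The single-block share was 46.3% ± 3.51 and 46.2% ± 2.13 (exact p = 0.976), the share of long single blocks was 5.93% ± 0.992 and 6.04% ± 0.849 (exact p = 0.841), and the median block number of spliced peaks was 3 in every heart. Over 5 against 5 hearts the smallest two-sided p is 0.00794.

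The comparison of counts rested on the hearts with the longest and the shortest list. Without db/+ 5 and db/db 5, the 4 db/+ hearts had 4996 to 6254 and the 4 db/db hearts 6329 to 6902 coding peaks, which did not overlap (645 more in db/db). Genes with a coding peak then numbered 1563 to 1900 and 1928 to 2089, which did not overlap either (220 more). The hearts left out are the db/+ heart with the most and the db/db heart with the fewest coding peaks and genes, so that leaving them out raises db/db against db/+ by construction, and no test is given for these differences. The share of coding peaks differed by 0.978 percentage points in that comparison. With lists cut to equal length, the difference was 312 coding peaks (exact p = 0.310).

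Lists of the same genotype were not detectably more alike than lists of different genotypes. The Jaccard index of coding bases, the shared bases divided by the bases in either list, averaged 0.446 within and 0.447 between genotypes (exact permutation test, one-sided, p = 0.452). Over the 45 pairs of hearts it ranged from 0.330 to 0.533. Heart db/db 5 had the lowest mean similarity to the others, 0.380, and db/+ 5 the next, 0.411. Without these hearts, the index was 0.0095 higher within than between genotypes (exact p = 0.0571, where 4 against 4 hearts allow 0.0286 at the smallest). That setting was chosen with earlier results known. The db/db lists left in it all held more coding peaks than the db/+ ones, and the part of list length in the index was not tested.

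Few coding regions were found in nearly all hearts of 1 genotype and nearly none of the other. A region was counted as gained in db/db with peaks in 4 or 5 db/db hearts and in at most 1 db/+ heart, and as lost in the reverse case. Gained coding regions numbered 36 of 4955, against 91 of all 15747 regions (0.578%). Lost coding regions numbered 29 of 4955, against 175 of all 15747 (1.11%). The gained share was thus above that of all regions and the lost share below it, and neither difference was tested. Together they were 1.31% of coding regions, against 1.69% of all regions. Fisher's exact test per region gave 20 of the 4955 coding regions an unadjusted p under 0.05, against 106 of all 15747 (0.673%). None of the coding regions passed after Benjamini-Hochberg adjustment over all 15747 regions (smallest adjusted p = 1). The 2 counts moved with the hearts included. When a heart was left out and 3 of the 4 left in its genotype sufficed, gained regions numbered 45 to 129 and lost regions 35 to 86. Leaving out any heart other than db/+ 1 or db/+ 2 moved the gained count by over 1.5 times (57 to 129, highest without db/db 5), and leaving out any heart other than db/db 5 moved the lost count so (51 to 86, highest without db/+ 1). Without both db/+ 5 and db/db 5 there were 188 gained and 60 lost. These hearts had the longest and the shortest list, so leaving them out raises gained against lost regions by construction. Matching shares over all regions are not given for left-out hearts, and no difference between genotypes follows from these counts.

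One coding region was found in all 5 db/db hearts and no db/+ heart. It lay in Zfp27 (chr7:29896109-29896355, minus strand), a zinc finger gene, with single-block best peaks of 60, 91, 91, 61 and 61 bp and authors' folds of 7.42, 9.02, 13.2, 8.27 and 4.97 in db/db hearts 1 to 5 (Fisher's exact test p = 0.00794, adjusted p = 1). Zfp27 itself was at 1.98, 1.16, 1.85, 0.886 and 2.29 FPKM in db/+ hearts 1 to 5 and at 2.44, 1.55, 2.05, 1.53 and 2.50 FPKM in the db/db ones, which overlapped (log2 fold change 0.21 ± 0.16 SE, limma, adjusted p = 0.498). Zinc finger genes have close relatives, and reads may be shared among them. Regions in Pkd2 (polycystin 2, a calcium-permeable channel), Ncoa6 (a nuclear receptor coactivator), Man1a (a mannosidase of glycoprotein processing), Prelp (a matrix proteoglycan) and Kpna1 (an importin of nuclear transport) were found in 4 db/db and no db/+ hearts. Regions in Prune2 and in Slfn5, a gene of the interferon-induced Schlafen family, were found in 5 db/db hearts and 1 db/+ heart. The Pkd2 region (chr5:104459840-104466917, plus strand) had peaks of 301, 121, 91 and 151 bp in db/db hearts 1 to 4. Heart db/db 5 had none there, nor in Man1a and Kpna1.

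Among lost regions none was found in all 5 db/+ hearts and no db/db heart. Regions in Mfhas1, Pum3 (a nucleolar RNA-binding protein), Kri1 (a ribosome assembly factor), Hccs (holocytochrome c synthase of mitochondria) and U2af1 (a splicing factor that binds the 3′ splice site) were found in 5 db/+ hearts and 1 db/db heart. Regions in Pbrm1 (a subunit of a chromatin remodeller), Lcmt2 (an enzyme of transfer RNA modification) and Ifi204 (an interferon-induced gene) were found in 4 db/+ hearts and no db/db heart. The Hccs region (chrX:169312868-169316573, minus strand) had peaks of 209, 210, 239, 150 and 179 bp in db/+ hearts and 298 bp in db/db 2. The Mfhas1 region (chr8:35590522-35590822, plus strand) had peaks of 121, 61, 151, 61 and 61 bp in db/+ hearts and 181 bp in db/db 1. In both regions the single db/db peak was the longest of the 6. The Pbrm1 region (chr14:31067461-31067782, plus strand) had peaks of 211, 61, 151 and 210 bp in db/+ hearts 1, 2, 4 and 5.

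**Figure D5:**
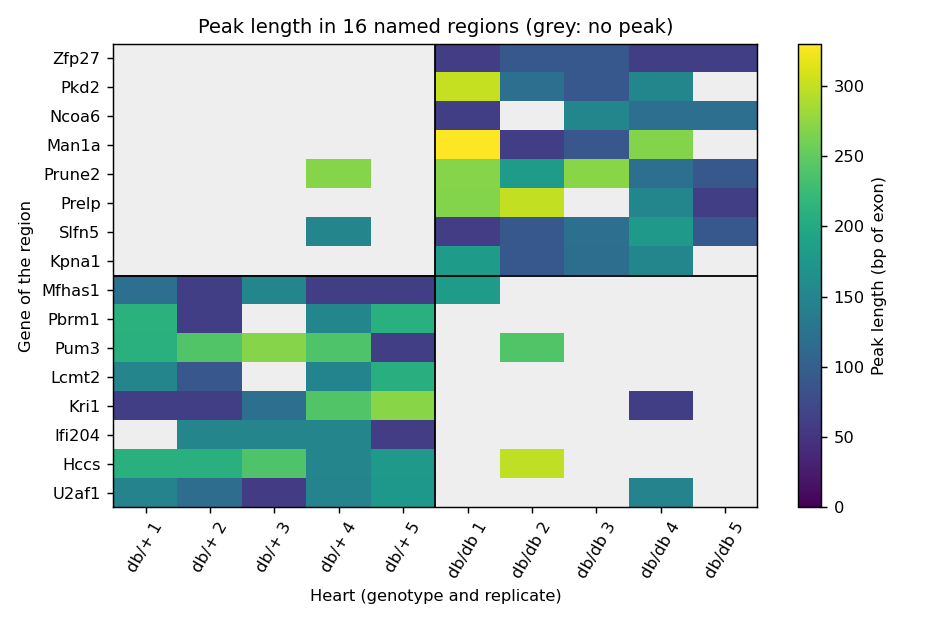
Length of the best peak (bp of exon, colour scale) in each heart for the 8 named gained regions (upper block) and 8 named lost regions (lower block); grey marks hearts with no peak. Zfp27 is filled in all 5 db/db hearts and no db/+ heart, and the peaks are 59 to 330 bp long.

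Genes of gained and lost regions were not called in expression. The median length of these regions, which lie in 4 to 6 hearts, was 136 bp for gained and for lost, between the 120 bp of regions in 2 to 4 hearts and the 179 bp of regions in 5 to 9. Of the genes with a gained or lost region, 60 were tested for expression and 0 were called (limma on log2(FPKM + 1), adjusted p under 0.05), beside 3.01% of all 10344 tested genes. The median log2 fold change was −0.025 for genes with gained and −0.036 for genes with lost regions, and −0.029 for all tested genes. Among the named genes, the lowest adjusted p were those of Pbrm1 (log2 fold change 0.32 ± 0.13 SE, limma adjusted p = 0.210) and Pkd2 (0.15 ± 0.065 SE, limma adjusted p = 0.221).

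The number of coding bases under peaks was lower in db/db hearts for titin. Covered Ttn bases were 27694, 31850, 28704, 31804 and 30209 in db/+ hearts 1 to 5 and 26746, 26767, 24447, 22980 and 19686 in db/db hearts 1 to 5. The genotypes did not overlap, and db/db 5 was lowest. The means were 30052 ± 1851 and 24125 ± 2957 bases (SD, n = 5 each; exact permutation test, p = 0.00794). This measure was 1 of 24 further values per heart compared beside the 7 planned ones, and the only one of the 24 with an unadjusted p under 0.05. Without db/db 5 the difference was −4817 bases, and over all hearts left out in turn it ranged from −6587 to −4817. The number of Ttn sites, 60.2 ± 10.4 and 54.4 ± 2.30 per heart, overlapped (exact p = 0.310), and Ttn expression was 57.6 ± 6.06 and 53.5 ± 7.10 FPKM (log2 fold change −0.11 ± 0.099 SE, limma adjusted p = 0.584).

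Because Ttn had been seen first, the same measure was then computed for all 1764 genes with a coding peak in 5 or more hearts. The genotypes did not overlap for 6 genes lower in db/db, 0.34% of the genes tested, and for 4 higher, 0.227%. Separation in either direction has an exact permutation p of 0.00794, so chance alone could give it to that share of genes. The 6 and 4 genes together were a smaller share. In all, 66 genes had an unadjusted exact p under 0.05 (38 lower and 28 higher), also a smaller share of the 1764 than 0.05. None passed after adjustment over the 1764 genes (smallest adjusted p = 1), Ttn included. No gene could pass on its own, since the exact permutation test gives 0.00794 at the smallest. The adjustment therefore decides nothing for Ttn alone. The counts of separate genes and of genes with an unadjusted exact p under 0.05 were thus not above chance. The genes named next are given as a description. The 6 lower genes were Ttn, Cmya5, Rb1cc1, Tnnt1, Pnpla8 and Sgo2a. Cmya5, also among the genes with the longest single-block peaks, had 5137, 4448, 4777, 4835 and 5437 covered bases in db/+ and 4356, 4146, 4025, 3877 and 3877 in db/db hearts (adjusted exact p = 1). Rb1cc1, an autophagy initiation factor, had 1680 to 2103 bases in db/+ and 1109 to 1559 in db/db hearts, and Tnnt1, the slow skeletal troponin T, 239 to 488 and 0 to 226. The 4 higher genes were Colec11, Ccdc58, Zfp27 and Pkm, the last with 155 to 504 bases in db/+ and 505 to 539 in db/db hearts for this glycolytic enzyme. Zfp27 had 0 covered bases in every db/+ heart, so it met the filter of 5 hearts through db/db hearts alone. Its separation was fixed by that filter and adds no support to its gained region. Without db/db 5, the heart with the shortest list, 34 genes were higher and 8 lower. Leaving out db/+ 1, 2, 4 or 5 gave 7 or 8 higher genes, and leaving out db/+ 1, 2 or 5 or db/db 1 to 4 gave 11 to 15 lower genes.

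Genes with recurrent coding peaks were called in expression in shares near those of all genes. Of the 1764 genes, 1725 were tested, and 18 were higher (1.04%) and 27 lower (1.57%) in db/db hearts at a limma adjusted p under 0.05. Over all 10344 tested genes these shares were 1.29% and 1.72%. The median log2 fold change was −0.029 for the recurrent genes as for all tested genes. With library medians set equal, 21 of the recurrent genes were higher and 18 lower, and 161 and 113 of all tested genes. Leaving out 1 heart gave 5 to 17 higher genes, with 5 to 8 without db/+ 3 or 4 or db/db 1, 2 or 3. It gave 9 to 29 lower genes, with 9 to 14 without db/+ 1, 3 or 4 or db/db 1, 3 or 4. In tissue RNA, fewer cells of a type and less RNA per cell cannot be told apart.

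In the gene lists with the most coding peaks, 0 to 4 members were called in expression. Over all 10344 tested genes, 1.29% were called higher and 1.72% lower. Each list below with a called member lay above the matching share, for which 1 gene suffices in lists this small. The lists were chosen with earlier results known, and their shares were not tested against those of all genes. None of 19 tested genes of the m6A machinery was called, and the named members Zc3h13, Ythdc1 and Hnrnpa2b1 had log2 fold changes of −0.13, −0.0017 and −0.14. None of 47 chromatin and transcription genes was called (Tbx20 was higher with library medians set equal). Of 34 cytoskeletal and scaffold giants, Tln2 was lower, and it was not called with library medians set equal. Of 34 sarcomere and Z-disc genes, 4 were lower: Mybpc3, Myl2, Myl3 and Tnnc1, of which Myl2 was not called with library medians set equal. Myl3 had a coding peak in 5 or more hearts, and Mybpc3, the myosin-binding protein C of the heart, in all 10. Of 22 fatty acid oxidation genes, 9 were higher, and they were 9 with library medians set equal and 6 without db/+ 5 and db/db 5. Of these 9, Acadl, the long-chain acyl-CoA dehydrogenase, is the member with a coding peak in 5 or more hearts. It was found in 8 hearts, with 537 ± 28.9 FPKM (SD, n = 5) in db/+ hearts, and 664 ± 46.0 FPKM in the db/db ones (log2 fold change 0.30 ± 0.062 SE, limma adjusted p = 0.0270). This call was kept in 3 of 10 fits that each left out 1 heart (limma adjusted p = 0.0151 to 0.0748) and was lost without db/+ 5 and db/db 5 (limma adjusted p = 0.0576). Of the other lists, insulin signalling and glucose uptake had 3 of 26 lower (Akt1, Irs1 and Slc2a4), calcium handling 2 of 25 lower (Hcn2 and Kcnip2), oxidative phosphorylation 1 of 30 lower (Cox7a1, not called with library medians set equal) and ribosomal proteins 0 of 30. With each heart left out in turn, Tnnc1, Kcnip2, Slc25a20, Ech1, Decr1, Acaa2, Fabp3, Irs1 and Slc2a4 were called in 10 of 10 fits, Mybpc3, Myl3 and Cd36 in 9, Cox7a1 in 5, Eci2 and Akt1 in 3, Myl2 and Etfdh in 2, and Hcn2 and Tln2 in 0. Of the 4 adipocyte markers, Cfd was lower in db/db hearts (log2 fold change −2.89, limma adjusted p = 0.0411). This call was kept in 3 of 10 such fits and was lost without db/+ 5 and db/db 5 (limma adjusted p = 0.0982).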

How the data were processed

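Per the labels' protocols, frozen hearts gave Trizol RNA, poly(A) messenger RNA was isolated, and libraries were made with a KAPA stranded kit. HISAT2 2.1.0, Trimmomatic 0.32, FastQC 0.11.7 and the build mm9 are named, without roles, in the submitters' processing notes. Positions nevertheless fit GRCm38, where 89.9% of 11500 genes paired by symbol and chromosome began or ended within 50 bp, and are printed as deposited, counted from 1. Neither the peak caller nor the FPKM program is given in the sources used here.

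Per the file headers, the lists give exon blocks, a fold enrichment (the authors' ratio of immunoprecipitated RNA to input) and a p-value deposited by the authors for each peak, called per heart and not on pooled samples. Fold (1.05 to 177 in coding peaks) and p (at most 0.00513) served only to describe, rank or filter peaks within a list. Of 146953 rows, 5117 (3.48%) repeated a position and were dropped, 1666 of 62528 coding rows among them. The FPKM values deposited by the authors cover 11856 genes in 10 input libraries. Intervals for single values are not given because depth is unknown.

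Values per heart were compared with exact permutation tests over 252 assignments, and classes within hearts with sign flips over 10 hearts (1024). Regions were tested with Fisher's exact test. Expression used limma 3.58.1 in R 4.3.3 on log2(FPKM + 1), fitted to the 10344 genes whose mean reached 1 FPKM; the pseudocount understates changes of low genes. The rest was done in Python 3.11.15 with scipy 1.17.1, and the scripts were tested on simulated data. Tests took hearts as replicates, 1 animal each. The replicate numbers did not pair the hearts.

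Named were the 10 genes with the most coding regions in 5 or more hearts, the 10 longest single-block and 6 most spliced regions in all 10 hearts, up to 8 gained and 8 lost regions by difference in hearts and then fold rank, called genes among these, and up to 3 members of each list. Some genes named by this rule are not reported here. Other list members, the 10 genes separate in covered bases and the mitochondrial genes were named after their values were seen. Members, lists and tests were chosen with earlier results of these data known. Covered bases, transcript lengths, fold percentiles, sites, the printed stretches and their motif were added after results were seen. Alternatives were filters on fold (at least 2) and p (at most 1e-05), equal list lengths, left-out hearts, a replicate block, repeats kept, other block lengths, overlaps and thresholds, and other scalings and filters of expression.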

Additional observations from a re-analysis of the deposited data

Results flagged for a closer look

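In groups of 5 hearts, 13 of 64 groups had an end value far from the other 4, with a gap of over 0.71 of the group's range; chance flags about 1 in 20 groups. Heart db/db 5 accounted for 7 of them. It was lowest of its genotype in coding peaks (4252, against 6329 to 6902), in genes with a coding peak (1265, against 1928 to 2089), in sites (1792, against 2784 to 3058), in covered coding bases (492127, against 828249 to 872500), in median peak length (181 bp, against 208 to 210 bp) and in single-block share (42.4%, against 46.9% to 47.6%). Its median single block was 150 bp, against 151 bp in the other 4, and that of db/+ 2 was 148 bp, against 151 bp in the other 4, differences within the 30 bp step of the lists. The list of db/db 5 was also the shortest, with 8462 peaks.

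Expression of genes with named gained or lost regions gave 5 more. Ifi204 was highest in db/+ 2 (5.57 FPKM, against 3.00 to 3.65). Kpna1 was lowest in db/+ 5 (10.1 FPKM, against 12.9 to 13.4) and, among db/db hearts, in db/db 1 (3.89 FPKM, against 12.8 to 14.6), a heart that had a Kpna1 peak. Mfhas1 was lowest in db/+ 1 (4.78 FPKM, against 5.97 to 6.23), and Pkd2 was highest in db/+ 4 (5.41 FPKM, against 5.03 to 5.13). The causes were not tested.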

How the results depend on the processing

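Over 620 recomputed values, the 6 class comparisons with 3′ untranslated and stop-spanning peaks kept direction and call under every alternative run; those with peaks touching the 5′ untranslated region, of transcript length and of fold percentile had none run. Differences below are db/db minus db/+. With p at most 1e-05 they were 69.4 coding peaks, −9.2 bp of length, 1.11 points of single-block and −0.305 of long single-block share, and similarity 0.00249, with 8 regions lost, 309 in all hearts and 631 in 1 heart. With equal list lengths they were 311.8 peaks, −13.6 bp, 2.51 and −0.715 points, −0.2 blocks and similarity 0.00463, with 12 lost and 773 in 1 heart. Without db/+ 5 and db/db 5 (setting planned with earlier results known) they were 645 peaks, 220 genes, 2.04 points of single-block share and similarity 0.00947, with 188 gained and 60 lost, 54 genes with more and 14 with fewer covered bases, and −0.026 for Prune2 on the log2 scale. As given above, leaving out these hearts raises counts in db/db against db/+ by construction. A long block of 800 bp gave −0.449 points. One peak per site, chosen after seeing the data, gave −5.2 bp and 0.167 points. Requiring 5 hearts against 0 left 1 gained and 0 lost; counting mixed regions gave 1141 in all hearts. With the replicate block, 76 regions were gained, 68 lost, 2 genes higher and 7 lower; correlations of same-numbered hearts were −0.11 to 0.03, so the numbers share only a name.

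Leaving out each heart, or db/+ 5 and db/db 5 together, gave −354.9 to 645 peaks, 0.978 to 5.12 points of coding share, −58 to 220 genes, −1.08 to 2.04 points of single-block and −0.298 to 0.444 of long single-block share, similarity −0.00355 to 0.00947, 45 to 188 gained, 35 to 86 lost, 5 to 54 genes with more and 7 to 15 with fewer covered bases, and 5 to 25 genes higher and 9 to 33 lower. On the log2 scale it gave −0.061 to 0.12 for Ifi204, −0.35 to 0.12 for Kpna1, −0.028 to 0.10 for Prune2 and −0.019 to 0.075 for Slfn5. There 3 of 4 hearts suffice in the genotype left short, which changes together with the heart left out; the causes were not tested. Peak calls without read counts cannot show a missing peak from a shallow one, and 5 hearts a genotype cannot pass adjustment over 15747 regions.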
